A study of Homo sapiens with 5 samples.

Results

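The respiratory chain module comprised the nuclear genes for the subunits of the mitochondrial electron transport complexes, for cytochrome c and for ATP synthase. Members were chosen by gene symbol alone: those starting with NDUFA, NDUFB, NDUFC, NDUFS, NDUFV, UQCR, COX4, COX5, COX6, COX7, COX8, ATP5F, ATP5M or ATP5P, and SDHA, SDHB, SDHC, SDHD, CYC1 and CYCS, without the NDUFAF assembly factors. On probe sets annotated to a single gene, this gave 83 genes of 19775, read by 158 probe sets. Of these, 36 belong to complex I, 3 to complex II, 7 to complex III, 1 is cytochrome c, 18 belong to complex IV and 18 to complex V. The prefixes also took 5 genes that encode no subunit, namely the noncoding RNAs NDUFV1-DT, NDUFB2-AS1 and NDUFV2-AS1 and the pseudogenes ATP5MC2P1 and COX6A1P1, which leaves 78 coding members. NDUFS8, SDHB, UQCRFS1, NDUFA4 and the mitochondrially encoded subunits are not analysed here.

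The cells were MonoMac6, an established human line of monocytic origin. Total RNA was taken from unstimulated cells and from cells kept for 12 h with 100 nM of a leukotriene (B4 or C4) or of a lipoxin (A4 or B4), all added from DMSO stocks, and was hybridised to 1 oligonucleotide array per condition. The series sets pro-inflammatory against anti-inflammatory eicosanoids. No source used here says if DMSO was also added to the control culture. With 1 array in each of the 5 groups there is no replicate error, so no test was possible, and every difference below describes a pair of arrays, not a condition. All 4 comparisons with unstimulated cells share the single control array.

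The respiratory chain passes electrons from NADH through complex I, or from succinate through complex II, to ubiquinone, then through complex III and cytochrome c to complex IV, which reduces oxygen. Complexes I, III and IV pump protons, and complex V uses the returning protons to make ATP. In monocytes and macrophages the chain supplies ATP and is also a source of reactive oxygen species, and activated macrophages are known to alter their use of it. Leukotriene B4 and leukotriene C4 are lipoxygenase products of arachidonic acid, the latter carrying a glutathione, and lipoxin A4 and lipoxin B4 are positional isomers of each other. In bulk RNA a lower signal from fewer transcripts per cell cannot be told apart from a lower share of cells that make them.

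Many of these genes are known to share promoter elements bound by NRF1 and by ETS factors such as GABPA. RefSeq promoters of build GRCh38.p14, from 250 bases before to 50 bases after the start, were available for 66 of the coding members. The 250 bases before the start are shown for the electron carrier CYCS and the regulatory oxidase subunit COX4I1, for NDUFA9, the only member over 500 with a difference from unstimulated cells that kept its call under every alternative, and for SDHD and UQCR11, whose promoters hold both kinds of word. Capitals mark exact matches, on either strand, to GCGCANGCG (NRF1 type) and CCGGAAGT (ETS type). The windows are chr7:25125261-25125510 on the minus strand for CYCS, chr16:85799445-85799694 on the plus strand for COX4I1, chr12:4648864-4649113 on the plus strand for NDUFA9, chr11:112086623-112086872 on the plus strand for SDHD and chr19:1605463-1605712 on the minus strand for UQCR11, each written 5′ to 3′.
CYCS: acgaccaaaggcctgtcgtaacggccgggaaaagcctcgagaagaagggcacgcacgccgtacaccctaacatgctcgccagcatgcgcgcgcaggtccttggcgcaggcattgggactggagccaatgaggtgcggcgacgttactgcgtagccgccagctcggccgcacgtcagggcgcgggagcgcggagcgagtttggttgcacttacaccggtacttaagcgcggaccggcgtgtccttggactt
COX4I1: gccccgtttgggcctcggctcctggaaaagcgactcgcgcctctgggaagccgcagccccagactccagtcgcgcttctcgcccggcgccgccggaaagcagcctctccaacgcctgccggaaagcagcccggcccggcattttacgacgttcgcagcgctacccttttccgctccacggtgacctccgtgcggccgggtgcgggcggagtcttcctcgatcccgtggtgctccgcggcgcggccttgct
NDUFA9: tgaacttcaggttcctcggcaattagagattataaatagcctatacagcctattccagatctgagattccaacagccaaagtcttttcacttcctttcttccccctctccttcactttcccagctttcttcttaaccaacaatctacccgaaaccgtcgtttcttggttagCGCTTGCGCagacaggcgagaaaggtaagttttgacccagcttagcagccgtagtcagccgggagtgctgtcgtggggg
SDHD: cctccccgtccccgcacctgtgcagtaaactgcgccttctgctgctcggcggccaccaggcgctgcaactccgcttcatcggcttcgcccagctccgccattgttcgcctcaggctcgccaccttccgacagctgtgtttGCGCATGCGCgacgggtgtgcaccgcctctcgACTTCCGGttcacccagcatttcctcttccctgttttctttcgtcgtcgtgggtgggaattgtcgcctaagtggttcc
UQCR11: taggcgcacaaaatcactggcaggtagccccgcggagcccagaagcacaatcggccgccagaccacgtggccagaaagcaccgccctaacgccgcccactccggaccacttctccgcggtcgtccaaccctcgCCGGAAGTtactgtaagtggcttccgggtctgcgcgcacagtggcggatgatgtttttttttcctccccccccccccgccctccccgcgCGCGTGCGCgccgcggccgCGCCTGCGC

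An NRF1-type word was present in 33.3% of the 66 member promoters, against 11% of 15843 coding promoters of the same length. The ETS-type word was present in 13.6% against 6.19%, and the YY1-type word AAGATGGCG in 10.6% against 2.74%. Any of these 3 words was found in 48.5% of member promoters and in 18.1% of all coding promoters. By contrast, the Sp1-type word GGGCGG (59.1% against 58.5%) and the TATA word TATAAA (10.6% against 9.63%) were about as frequent in both, and the CREB-type word TGACGTCA was found in 6.06% against 2.59%. All words were searched on both strands, and no word contains another. Median GC content was 61.7% in member promoters and 62.7% in all.

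The places of the words were counted in the members only. No share over all coding promoters stands beside these counts, so they do not set the members apart. Of the 22 members with an NRF1-type word, 18 had it within the 100 bases before the start, as in NDUFA9, where CGCTTGCGC begins 79 bases before it, and in UQCR11, where 1 copy begins 28 bases and another 9 bases before it. In SDHD a palindromic stretch gives overlapping matches on both strands 110 and 109 bases before the start, and ACTTCCGG, the ETS-type word on the other strand, begins 78 bases before it. The YY1-type word lay past the start in 6 of 7 members, NDUFA9 among them. By complex, NRF1-type words were found in 9 members of complex I, 2 of complex II, 3 of complex III, 2 of complex IV and 6 of complex V. The windows of CYCS and COX4I1 held no exact match to either marked word. These are letter matches, and no binding was measured.

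Signals are the deposited intensities after scaling each array by 1 factor, and a signal under 48.7, the floor, was treated as not measured. Of the 78 coding members 74 were above the floor on at least 1 array, and 71 had a mean signal of at least 500, between 1141 for NDUFA7 and 28671 for ATP5F1A. COX7A1, COX7B2 and COX8C were under the floor on all 5 arrays, as was the single-symbol probe set of ATP5MF. A further probe set, shared by ATP5MF and ARMC2-AS1 and left out by the rule, read 16263 to 21554. All 5 arrays had the same trimmed mean of 500.1 as deposited, and the further factor applied here shifted them by -0.03 to 0.04 on the log2 scale. Of 10 monocytic markers 8 had a probe set and 7 were above the floor. Their summed signal was the largest of the cell type lists on every array, at 47264 to 61979. Most of it came from 1 marker, with a median signal of 47389. The sum over T cell markers was 70.44 to 160.9, over B cell markers 244.8 to 335.3 and over erythroid markers 145.2 to 193.8. Megakaryocyte markers summed to 93.3 to 161.8, epithelial and liver markers to 762.7 to 917.3 and muscle markers to 86.5 to 148. The fibroblast and endothelial list summed to 4903 to 5524, most of it from PECAM1, which monocytes also make. Ratios of the 3′ to the 5′ control probe sets were 0.996 to 1.06 for GAPDH and 1.1 to 1.13 for ACTB. The middle 18S rRNA control probe set was 4.9-fold, 16.5-fold, 1.96-fold and 5.66-fold brighter on the leukotriene B4, leukotriene C4, lipoxin A4 and lipoxin B4 arrays than on the unstimulated one, and its part in the results was not tested.

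Across the chain the subunit genes differed little between arrays. The median log2 difference from the unstimulated array over the 79 measured members was -0.02 with leukotriene B4, 0.15 with leukotriene C4, 0.00 with lipoxin A4 and -0.07 with lipoxin B4. Over all 15374 measured genes the medians were 0.00, 0.06, 0.00 and 0.00, and over the 3129 genes with a mean signal of at least 2000, which is where 70 of the members lie, they were 0.06, 0.13, 0.05 and 0.05. The highest and lowest signals of a coding member differed by a median of 0.29 on the log2 scale over the 5 arrays, against 0.26 for genes of at least 2000. The widest range among members with signals of at least 500 was 0.66 for NDUFB7, and the narrowest ranges over all measured members were 0.10 for COX6A2 and NDUFB6 and 0.13 for ATP5PF.

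**Figure D1:**
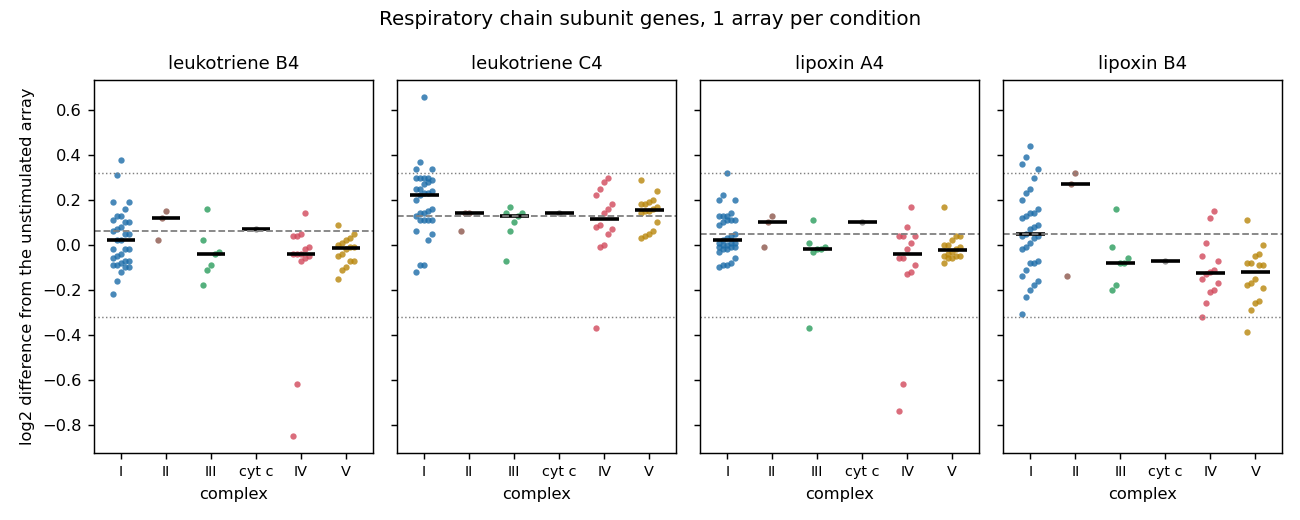
Log2 difference of each measured coding subunit gene from the unstimulated array, by complex, in 1 panel per eicosanoid (points, genes; black bars, medians per complex; dashed line, median over genes with a mean signal of at least 2000; dotted lines, 0.32 either way). Most points lie within the dotted lines, complex I sits at a median of 0.22 on the leukotriene C4 array and complexes IV and V at -0.12 on the lipoxin B4 array.

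Differences of at least 0.32 on the log2 scale in either direction were counted beside those of all genes and of the brighter genes, among which most members lie. With leukotriene B4, leukotriene C4, lipoxin A4 and lipoxin B4, 4.05%, 6.76%, 5.41% and 9.46% of the 74 coding members differed by that much. Among genes of at least 2000 the shares were 6.17%, 10%, 3.77% and 13.7%. The sets are unlike, since the 74 include COX4I2, COX6A2 and COX6B2, with signals under 500. The members' share was the larger only with lipoxin A4, where COX4I2 and COX6B2 were among the lower calls. The next counts are over all 79 measured members, those that encode no subunit included. With leukotriene B4, 1 member was higher and 3 were lower. Of all genes 11.1% were higher and 16.0% lower, and of genes of at least 2000 3.93% and 2.24%. With leukotriene C4, 5 were higher and 2 lower, against 16.4% and 14.5% of all genes and 8.44% and 1.60% of the brighter genes. With lipoxin A4, 1 was higher and 7 lower, against 10.4% and 14.6%, and 2.84% and 0.927%. With lipoxin B4, 5 were higher and 5 lower, against 12.1% and 17.9%, and 7.45% and 6.30%. Many of the lower calls were dim: among the 71 coding members with a signal of at least 500, the numbers higher and lower were 1 and 0, 4 and 0, 1 and 1, and 5 and 2 in the same order of compounds. At 2-fold either way, 2.47%, 2.90%, 2.45% and 2.52% of all genes differed in the same order, and the only member apart by that much on its brightest probe set was the noncoding NDUFV1-DT.

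The leukotriene C4 array gave the highest of the 5 signals for 60 of the 74 coding members. The unstimulated array was highest for 5, lipoxin B4 for 8, lipoxin A4 for 1 and leukotriene B4 for 0. The same array was also highest for 1558 of the 3129 genes of at least 2000 (49.8%), and its share grew with signal. Among members it was highest for 8 of 13 with signals from 500 to 5000, 26 of 32 from 5000 to 15000 and 25 of 26 at 15000 and over, and among other genes for 33%, 54.7% and 80.6% in those bands. The median difference of the members from the unstimulated array in these bands was 0.30, 0.14 and 0.15, against 0.10, 0.14 and 0.12 for other genes, so the gap from other genes was widest in the dimmest of the 3 bands. The member median of 0.15 moved to 0.04 under quantile normalisation and to 0.02 under cyclic loess normalisation.

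Across genes, the difference of the lipoxin B4 array from unstimulated cells varied with signal. Members under 5000 had a median of 0.15 (12 of 13 above 0), those from 5000 to 15000 a median of -0.01 (15 of 32 above 0), and those of 15000 and over a median of -0.17 (26 of 26 below 0). Other genes followed the same course, with medians of 0.07, 0.02 and -0.27. Control probe sets moved too: the 4 for cre, an added bacteriophage RNA, had differences of -0.28 to -0.38, those of GAPDH -0.35 to -0.42 and those of ACTB -0.51 to -0.59. Since cre comes from no cell, the lower brightness of the top probe sets on this array was also present in a signal that the culture did not provide; its part in the members' values was not tested. Genes of 15000 and over make up 12 of 16 measured coding members of complex V and 8 of 14 of complex IV, but 4 of 33 of complex I.

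**Figure D2:**
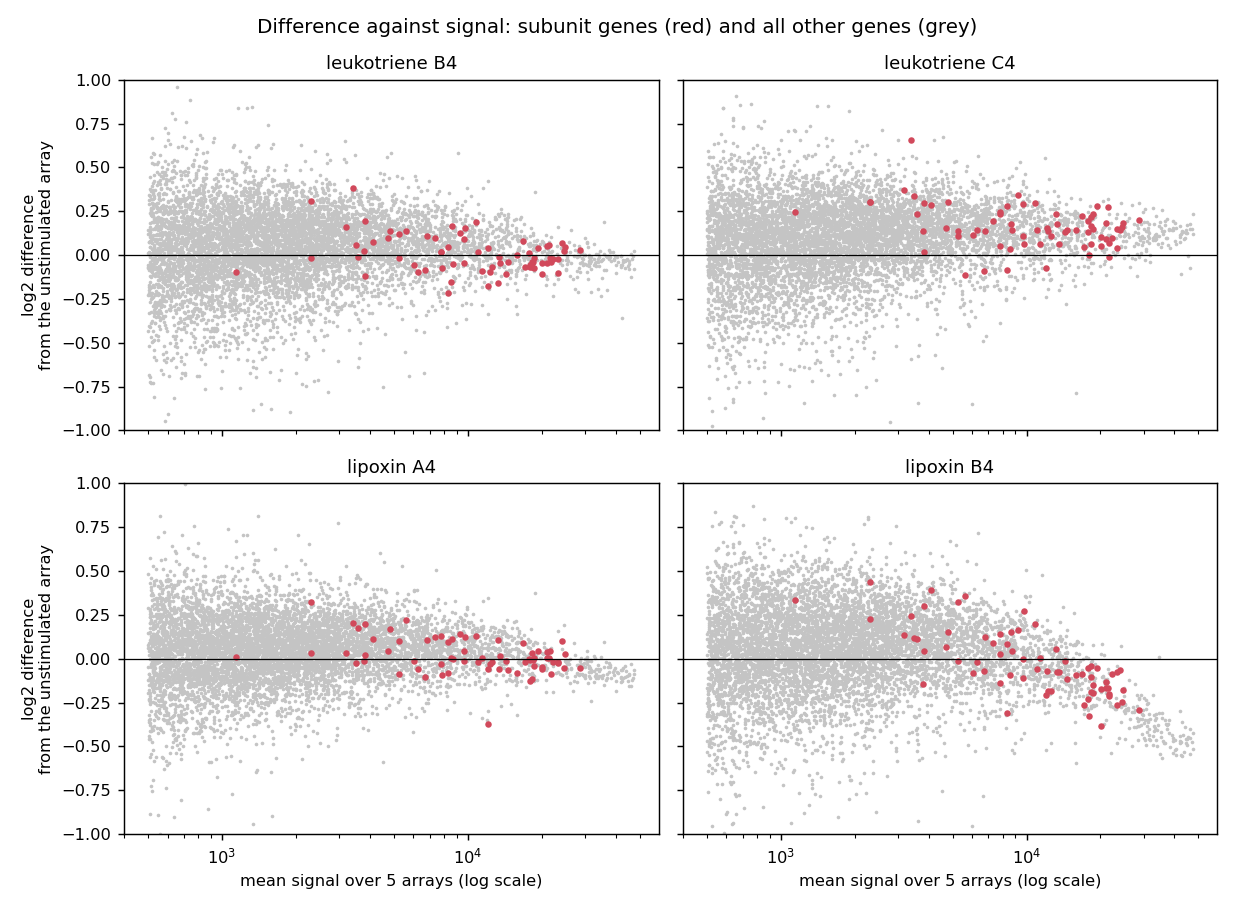
Log2 difference from the unstimulated array (y axis) against mean signal over the 5 arrays (x axis, log scale) for genes with a mean signal of at least 500, with subunit genes in red and all other genes in grey. On the lipoxin B4 array both red and grey points bend downwards at the bright end, where members of 15000 and over had a median of -0.17 and other genes of -0.27.

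Complex I, the NADH dehydrogenase, had the highest median of the complexes with leukotriene C4. Its 33 measured coding members had medians of 0.02, 0.22, 0.02 and 0.05 with leukotriene B4, leukotriene C4, lipoxin A4 and lipoxin B4, and with leukotriene C4 30 of 33 were above 0, as were 2531 of the 3129 genes of at least 2000. NDUFA9, an accessory subunit at the junction of the membrane and peripheral arms, gave signals of 1905 in unstimulated cells and 2361, 2345, 2383 and 2578 with leukotriene B4, leukotriene C4, lipoxin A4 and lipoxin B4. The unstimulated array was thus the lowest, as it was for 43.5% of genes of at least 2000. The 4 stimulated arrays lay closer to each other than to it. The differences were 0.31, 0.30, 0.32 and 0.44, and the last stayed past 0.32 under all 9 alternatives that could be run for it, at 0.38 to 0.44. NDUFA9 has 1 probe set, so no second reading of the transcript was at hand.

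NDUFB7, an accessory subunit on the intermembrane side, had the largest difference of any coding member with leukotriene C4. Its brightest probe set read 2765, 3610, 4364, 3184 and 3279 on the unstimulated, leukotriene B4, leukotriene C4, lipoxin A4 and lipoxin B4 arrays, highest with leukotriene C4 and lowest without stimulation, giving 0.38, 0.66, 0.20 and 0.25. Its other measured probe set went the opposite way with both leukotrienes, at -0.45 and -0.73, so the direction for NDUFB7 depends on the probe set read. NDUFA8, another accessory subunit, read 2886, 3219, 3738, 2956 and 3171 and was 0.37 higher with leukotriene C4. NDUFB8, whose protein is often used as a marker of assembled complex I, read 8329, 9091, 10568, 9199 and 9317, which is 0.34 higher with leukotriene C4. Its further probe sets gave 0.22 and, on a dim probe set that read 136.5 to 230.6, -0.17. Under quantile and cyclic loess normalisation neither gene stayed past 0.32, with 0.28 and 0.29 for NDUFA8 and 0.22 under both for NDUFB8.

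Of the 5 core subunits of complex I analysed here (NDUFS1, NDUFS3, NDUFS7, NDUFV1 and NDUFV2), NDUFS7 with leukotriene C4 was the only one to differ by 0.32 from unstimulated cells on its brightest probe set. NDUFS1, with iron-sulfur clusters of the NADH-oxidising arm, read 3337, 3814, 4104, 3831 and 4104. All 4 stimulated arrays were above the unstimulated one, by 0.19, 0.30, 0.20 and 0.30. Its 4 further, dimmer probe sets gave 0.16 to 0.42 with leukotriene B4. With the other compounds they were of mixed sign, at -0.49 to 0.12 with leukotriene C4, -0.16 to 0.36 with lipoxin A4 and -0.11 to 0.22 with lipoxin B4. NDUFV1, which binds NADH and flavin, read 6065, 5826, 6555, 6017 and 5724, and its differences stayed between -0.08 and 0.11. NDUFV2, its partner, differed by 0.02, 0.24, 0.13 and 0.14, and NDUFS3, of the hydrophilic arm, by -0.04, 0.11, -0.01 and -0.11. NDUFS7, which holds the last cluster before ubiquinone, read 3270, 3396, 4127, 3218 and 3549 and was 0.34 higher with leukotriene C4. That difference became 0.22 under quantile and 0.24 under cyclic loess normalisation, and -0.13 when probe sets of the types _x_at and _s_at, which may read several transcripts, were left out. The NDUFS7 probe set then left read 53.32 in unstimulated cells and was under the floor with leukotriene C4. Over the 5 core subunits the median with leukotriene C4 was 0.24, and over the 28 accessory ones it was 0.21.

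NDUFA5, an accessory subunit of the peripheral arm, had the opposite order to most members. It read 5148, 5652, 4752, 6007 and 6597, so that leukotriene C4 was the lowest array and lipoxin B4 the highest, with differences of 0.13, -0.12, 0.22 and 0.36. Its other probe set was under the floor in unstimulated cells and with both lipoxins, so it gave no reading of the lipoxin differences. With leukotriene C4 that probe set read 61.2, which is 0.33 above the floor. NDUFV3 read 3636, 3828, 4436, 3935 and 4771, highest with lipoxin B4, where its 2 measured probe sets were 0.39 and 0.23 higher. NDUFA7 read 1065, 995.4, 1264, 1073 and 1345, which is 0.34 higher with lipoxin B4 and 0.29 under either normalisation. NDUFAB1, the mitochondrial acyl carrier protein that also serves lipoic acid synthesis, read 20847, 21726, 25209, 20940 and 18602, so its highest and lowest arrays were leukotriene C4 and lipoxin B4, as for most of the brightest members.

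**Figure D3:**
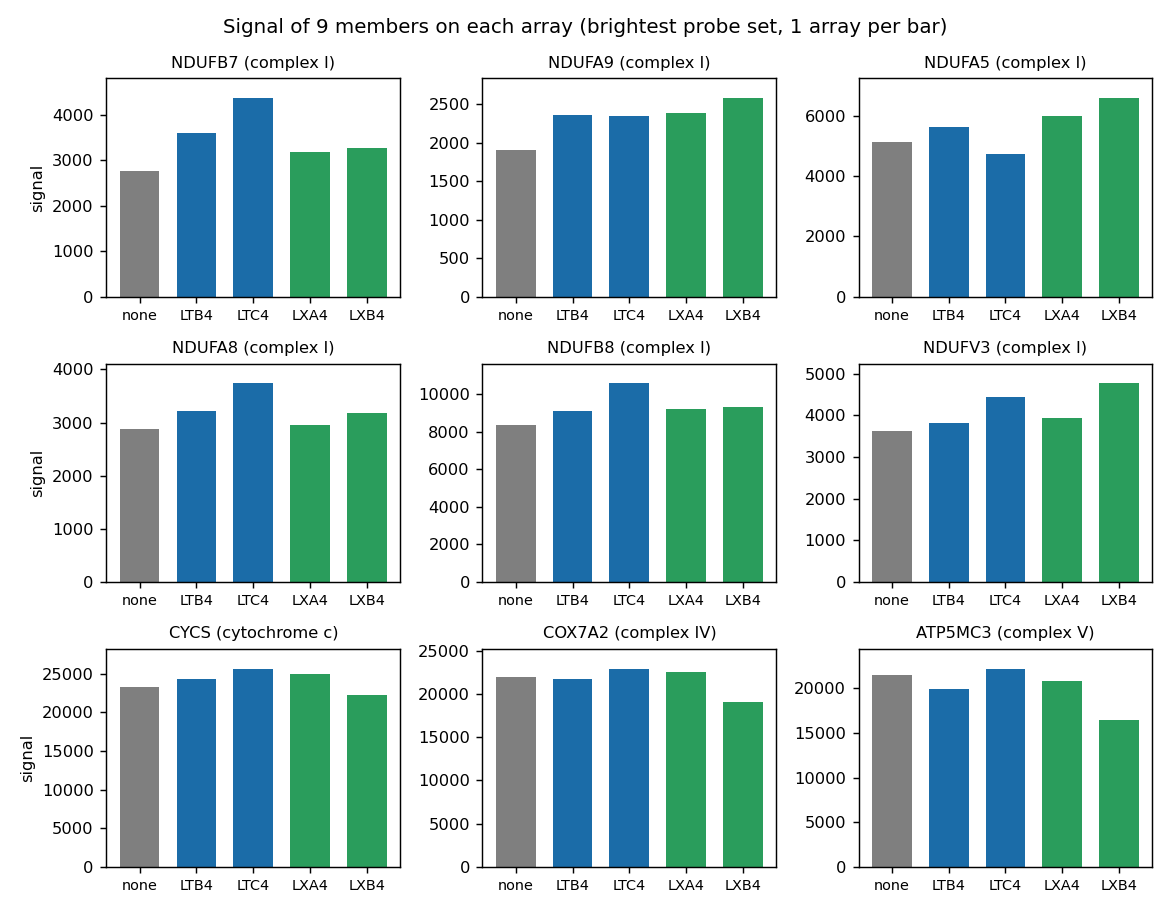
Signal of 9 members on each array (bars from 0; grey, unstimulated; blue, leukotrienes B4 and C4; green, lipoxins A4 and B4; 1 array per bar, so no error bars). NDUFA9 is lowest without stimulation, NDUFA5 is lowest with leukotriene C4, and ATP5MC3 and COX7A2 are lowest with lipoxin B4.

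The divergent transcript NDUFV1-DT, which starts beside NDUFV1, was the most variable member. It read 217.2, 170.9, 209.2, 168.9 and 73.91, far lower with lipoxin B4 than on any other array. The difference was -1.56, or 2.94-fold, from the unstimulated array and -1.19, or 2.29-fold, from lipoxin A4, while NDUFV1 itself differed by -0.08 and -0.07. The antisense RNA NDUFB2-AS1 read 102.1, 107.9, 123.5, 77.49 and 113.9, with lipoxin A4 lowest. NDUFV2-AS1 read 66.14, 66.67 and 79.37 in unstimulated cells and with the leukotrienes and was under the floor with both lipoxins, a difference from unstimulated cells of -0.44 when the floor stands in for the missing values. All 3 have signals under 500. Dim further probe sets of ATP5F1A were 2.34-fold and 2.59-fold higher with leukotrienes B4 and C4, and 1 of ATP5F1C was at least 2.23-fold higher with leukotriene B4. A dim probe set of NDUFB2 was at least 2.37-fold higher with lipoxin A4 than in unstimulated cells, and 2.26-fold lower with lipoxin B4 than with lipoxin A4. The brightest probe sets of these genes did not differ by 0.32 in those comparisons.

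Complex II, succinate dehydrogenase, links the tricarboxylic acid cycle to the chain, and SDHA, SDHC and SDHD were read. The flavoprotein SDHA read 3781, 3838, 4167, 3751 and 3429, highest with leukotriene C4 and lowest with lipoxin B4. The membrane anchors had another order: SDHC read 4768, 5177, 5239, 5115 and 5963 and SDHD read 8971, 9976, 9361, 9789 and 10845, both highest with lipoxin B4 at 0.32 and 0.27. For SDHC the other probe sets with signals over 1000 gave -0.06, -0.22 and -0.04 on that array, so its brightest probe set stood apart from those 3. The mean of all its probe sets was -0.06.

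Complex III, the cytochrome bc1 complex, moved little. Its 7 members had medians of -0.04, 0.13, -0.02 and -0.08 with leukotriene B4, leukotriene C4, lipoxin A4 and lipoxin B4. The core proteins UQCRC1 and UQCRC2 read 12564, 11765, 13803, 12306 and 11076, and 7959, 8915, 8983, 8600 and 8863. Cytochrome c1, CYC1, which hands electrons to cytochrome c, read 10895, 11044, 12026, 10759 and 10446. The largest difference was in the small subunit UQCR10, which read 13506, 11940, 12855, 10441 and 11727, lowest with lipoxin A4 at -0.37, where its other probe set gave 0.09. The mobile carrier cytochrome c, CYCS, read 23281, 24384, 25692, 24989 and 22252, a total range of 0.21 on the log2 scale.

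Complex IV, cytochrome c oxidase, had 14 measured coding members, among them the dim COX4I2, COX6A2 and COX6B2. COX4I1, the regulatory subunit of most tissues, read 14780, 14355, 16331, 14137 and 13635, and its differences were -0.04, 0.14, -0.06 and -0.12. COX5A read 21144, 20446, 22485, 21691 and 19322, and COX5B read 17862, 17020, 18461, 17613 and 14887, both highest with leukotriene C4 and lowest with lipoxin B4. COX8A, a small membrane subunit, had the largest lower value of the complex among bright members, with 19279 in unstimulated cells and 15398 with lipoxin B4, at -0.32, which became -0.21 under quantile and -0.27 under cyclic loess normalisation. COX7A2 read 21934, 21691, 22953, 22588 and 19054 and differed by -0.25 between the lipoxins. With lipoxin B4 11 of the 14 measured coding members of complex IV were below 0, and 8 of the 14 have signals of 15000 and over. Of the other genes in that band, 237 of 258 were below 0 too.

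The tissue-restricted isoforms were dim or under the floor while their partners were bright on the same arrays. COX4I2, of lung, read 279.1, 155.3, 216.6, 167.3 and 252.2, highest in unstimulated cells, with differences of -0.85 with leukotriene B4 and -0.74 with lipoxin A4. COX6A2, of heart and skeletal muscle, read 107 to 114.4 on all 5 arrays, where COX6A1 read 16955 to 21397. COX6B2, of testis, read 74.84, 89.02 and 81.36 in unstimulated cells and with leukotriene C4 and lipoxin B4, and was under the floor on the other arrays, where COX6B1 read 12357 with leukotriene B4 and 11546 with lipoxin A4. COX7A1, COX7B2 and COX8C were not measured, while COX7A2, COX7A2L, COX7B and COX8A were at 4322 or more on every array. Probe sets differ in their response, so these values place each isoform only against the floor.

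**Figure D4:**
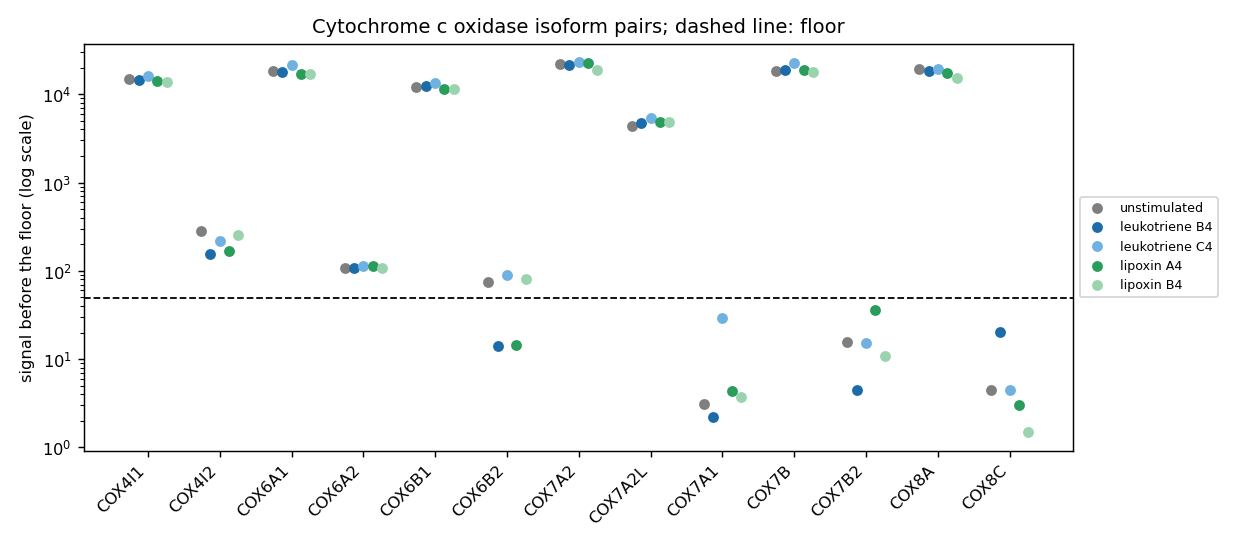
Signal on each of the 5 arrays (points, coloured by array; y axis on a log scale, values before the floor was applied) for cytochrome c oxidase isoforms, with the floor of 48.7 as a dashed line. COX4I1, COX6A1, COX6B1, COX7A2, COX7A2L, COX7B and COX8A lie far above the line on every array, COX4I2 and COX6A2 lie nearer to it, COX6B2 lies on both sides of it, and COX7A1, COX7B2 and COX8C lie under it.

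Complex V, ATP synthase, was uniform in sign with leukotriene C4. All 16 measured coding members were above 0, between 0.03 and 0.29 with a median of 0.15, and all 16 had their highest signal on that array. Among other genes of 15000 and over, the band that holds 12 of the 16, 227 of 258 were above 0 and 80.6% were highest there. The catalytic subunits ATP5F1A and ATP5F1B read 29134, 29714, 33426, 28133 and 23799, and 18561, 18061, 20845, 18445 and 16271, lowest with lipoxin B4 in both cases. The central stalk subunit ATP5F1C read 9120, 9720, 11147, 9399 and 9126 and differed by 0.29 with leukotriene C4. With lipoxin B4 14 of 16 were below 0, with a median of -0.12, and 16 of 16 were below lipoxin A4. Of the other genes of 15000 and over, 237 of 258 were below 0 and 251 of 258 below lipoxin A4. The 12 members of 15000 and over had a median of -0.18 with lipoxin B4 and the 3 from 5000 to 15000 one of -0.08, while the single dimmer member, ATP5MC1, had 0.11.

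The 3 genes for subunit c of the rotor ring encode the same mature protein behind different import sequences. ATP5MC1 read 3328, 3307, 3919, 3756 and 3603, and ATP5MC2 read 13306, 13195, 15050, 12769 and 12606, both highest with leukotriene C4. ATP5MC3 read 21468, 19954, 22217, 20803 and 16431, lowest with lipoxin B4 at -0.39, the largest lower value of a coding member on that array. A second ATP5MC3 probe set, at a mean signal of 18677, gave -0.02 there, and a dimmer one gave 0.34. Under quantile normalisation the brightest probe set gave -0.21. The pseudogene ATP5MC2P1 read 259.6, 212.4, 203.6, 199 and 205.8, highest in unstimulated cells, and its sequence is close to that of the gene it came from, so the origin of its signal is uncertain.

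Probe sets of the same gene gave a check within genes. Among 17 members with several probe sets of mean signal over 1000, all probe sets had the same sign in 11 with leukotriene B4, 14 with leukotriene C4, 8 with lipoxin A4 and 8 with lipoxin B4. With lipoxin B4 the brightest COX5B probe set, at 17122, gave -0.26, while those at 11260 and 10261 gave 0.00 and -0.01. They are of the types _s_at and _x_at, so they need not read the same transcripts. ATP5MG gave -0.26, -0.27 and -0.15 at 23330, 23110 and 17912, and 0.37 on a probe set at 1402. A lower value on the brightest probe set was not general. With lipoxin B4 that probe set was the lower one in 10 of the 17 genes and the higher one in 7, with a median gap of -0.04. Over all 67 further measured probe sets of members, the median distance from the brightest probe set of the same gene was 0.16, 0.20, 0.13 and 0.27 with the 4 compounds. These distances carry no sign, so they cannot be set against the signed medians of the members. Many of the further probe sets also had signals under 500.

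**Figure D5:**
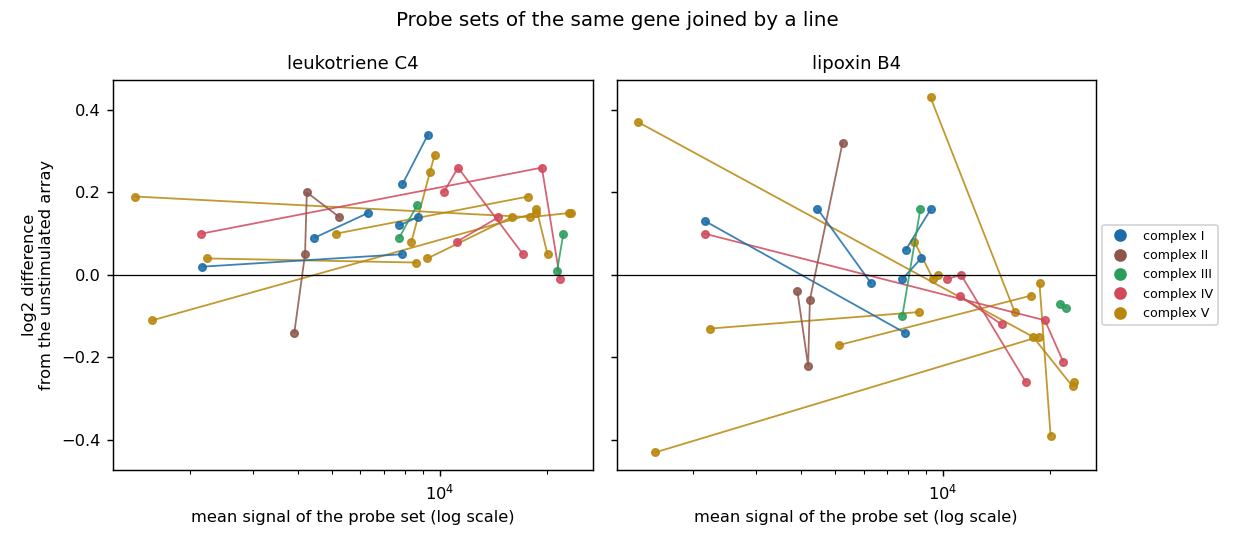
Log2 difference from the unstimulated array (y axis) against the mean signal of the probe set (x axis, log scale) for the 17 members with several probe sets over 1000, with probe sets of 1 gene joined by a line and coloured by complex, for leukotriene C4 (left) and lipoxin B4 (right). With lipoxin B4 the lines of COX5B and ATP5MG fall from their dimmer to their brighter probe sets, and others, such as that of SDHC, do not.

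Direct comparison of the leukotrienes at the same dose and time gave a member median of 0.15 for leukotriene C4 over leukotriene B4, with 74 of 79 members above 0. The medians were 0.04 over all genes, of which 8556 of 15374 were above 0, and 0.08 over those of at least 2000, of which 2240 of 3129 were. Past 0.32, 6 members were higher and 0 lower, against 15.7% and 9.72% of all genes and 3.13% and 1.21% of the brighter ones. They were COX6B2, which was under the floor with leukotriene B4, COX6A1P1, COX4I2 at 0.48, NDUFA1 at 0.39, NDUFA7 at 0.34 and NDUFS4, needed for the NADH-oxidising module, at 0.32. NDUFA1 read 12808, 11480, 15064, 13780 and 13295, with leukotriene B4 the lowest array. Under quantile or cyclic loess normalisation the median was 0.07 and 4 members were higher. NDUFA1 (0.30 under both) and NDUFS4 (0.27 and 0.29) were then no longer past 0.32.

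Between the lipoxins the member median was -0.04 for lipoxin B4 over lipoxin A4, with 0.00 over all genes and -0.02 over the brighter ones. Past 0.32, 4 members were higher and 2 lower, against 8.68% and 11.3% of all genes and 1.50% and 3.90% of those of at least 2000. NDUFA7 at 0.33, COX4I2 at 0.59 and NDUFB2-AS1 at 0.56 were higher, as was COX6B2, and NDUFV1-DT and ATP5MC3 (-0.34) were lower. The median turned to 0.05 under quantile and to 0.03 under cyclic loess normalisation.

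Both lipoxin arrays lay below both leukotriene arrays for 25 of 79 members (31.6%), where 17.3% of all genes and 27.3% of genes of at least 2000 did so. They lay above both for 2 members, NDUFA9 and NDUFA5, against 11.2% and 10.4%. The clearest coding members on the lower side were NDUFB7, with leukotrienes at 3610 and 4364 and lipoxins at 3184 and 3279, and the oxidase subunit COX6B1, with 12357 and 13381 against 11546 and 11464. For NDUFA9 the gap between the classes was 0.01 on the log2 scale. The median over members of the difference between the means of the classes was -0.09, and 0 coding members reached 0.32. The members' share on the lower side was thus near that of the brighter genes.

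Other mitochondrial gene groups were read beside the subunits, from lists of 48 assembly factors, 17 regulators of mitochondrial gene expression, 15 measured genes of the tricarboxylic acid cycle and 75 mitochondrial ribosomal proteins. With leukotriene C4 their medians were 0.21, 0.09, 0.16 and 0.16, beside 0.15 for the members and 0.13 for genes of at least 2000. Past 0.32, 8, 3, 1 and 5 were higher and 3, 0, 1 and 3 lower, where 16.4% of all genes were higher and 14.5% lower, and 8.44% and 1.60% of the brighter genes. With lipoxin B4 their medians were 0.13, 0.15, 0.03 and 0.02, with 9, 3, 0 and 4 higher and 2, 0, 1 and 3 lower, against 12.1% and 17.9% of all genes and 7.45% and 6.30% of the brighter ones. With leukotriene B4 the medians were 0.04, 0.08, 0.02 and -0.01, and with lipoxin A4 0.07, 0.07, 0.04 and 0.03.

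Some of these genes were higher on every stimulated array, as NDUFA9 was. The complex I assembly factor TMEM126B read 4945 in unstimulated cells and 6647, 6568, 6181 and 6511 with leukotriene B4, leukotriene C4, lipoxin A4 and lipoxin B4, or 0.43, 0.41, 0.32 and 0.40. The ATP synthase assembly factor ATPAF1 differed by 0.41, 0.42, 0.29 and 0.43, and TWNK, the helicase of mitochondrial DNA, by 0.36, 0.53, 0.41 and 0.47. In the other direction, OGDH, which makes succinyl-CoA in the cycle, read 1815 in unstimulated cells and 1383, 1421, 1296 and 1065, or -0.39, -0.35, -0.49 and -0.77. The mitochondrial ribosomal protein genes MRPL45 (-0.70, -0.61, -0.65 and -0.52) and MRPS18A (-0.31, -0.55, -0.48 and -0.48) were also lower on every stimulated array. GABPA, whose product binds ETS-type words, differed by 0.33, -0.01, 0.38 and 0.49, and TFB2M, needed for mitochondrial transcription, by 0.18, 0.42, 0.09 and 0.22. All of these differences share the one unstimulated array, and a deviation of that array and a response to every compound cannot be told apart.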

How the data were processed

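Each of the 5 arrays has a deposited linear intensity for 54675 probe sets. Per the submitters' processing notes the authors used GCOS (1.4), and how it computed signals is not stated in the sources used here. The mean after trimming 2% of probe sets at each end was 500.1 on every array. Groups came from the sample titles. Genes were named from 41097 probe sets with 1 symbol (platform annotation of 2016; 41043 matched to GRCh38.p14), and 62 control probe sets were left out.

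Signals were taken to log2 and scaled by 1 factor per array to an equal median over the upper 50% of probe sets. The floor was the 50th percentile of mean log2 signal. Each gene was read by its measured probe set of highest mean signal. With 1 array per group no test, p-value or error was computed, and array number limits the precision. Members named were the subunits with catalytic or electron-carrying roles, isoform pairs, the 3 largest differences per direction and comparison, members 2-fold apart, and the extremes of range. Members, lists and rules were chosen with earlier results of these data known. The signal bands, the log2 tolerance of 0.1 on medians, the within-gene comparison, the promoters of NDUFA9, SDHD and UQCR11, and the other members and mitochondrial genes singled out were chosen after their values were seen. The counting was tested on simulated data. Python 3.11.15 (numpy 2.4.6, pandas 2.3.3, scipy 1.17.1) and R 4.3.3 with limma 3.58.1, for the quantile and cyclic loess alternatives, were used; 10 alternatives were run.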

Additional observations from a re-analysis of the deposited data

Results flagged for a closer look

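Probe sets that carry several gene symbols were not used above, and some of them differed by at least 0.32 on the log2 scale from the unstimulated array, a threshold set after the values were seen. A probe set shared by NDUFS8 and 2 microRNA genes was 0.49 higher with leukotriene C4 (4879 to 6861), while a brighter one with the same symbols differed by -0.02 there and by -0.37 with leukotriene B4 (8246 to 6400), and a dim one was lower with lipoxin A4 (-0.74) and lipoxin B4 (-0.39). A probe set shared by NDUFC2 and the readthrough gene NDUFC2-KCTD14 was 0.52 higher with lipoxin B4 (444.8 to 637) and 0.39 higher with lipoxin A4. With lipoxin B4 a brighter one with the same symbols gave -0.15. Probe sets shared by PTCD1 and ATP5MF-PTCD1 were 0.41 and 0.53 higher with leukotriene C4, and the second was 0.43 higher with lipoxin B4. Dim probe sets shared by KCTD14 and NDUFC2-KCTD14 were 0.37 higher with leukotriene B4, against the floor, and 0.50 higher with leukotriene C4.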

How the results depend on the processing

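No paired analysis was possible because each group holds 1 array, and for the same reason no replicate could be left out. Over the alternatives, a median was taken to have moved at a shift over 0.1 on the log2 scale, and by that measure only the member median with leukotriene C4 moved, from 0.15 to 0.04 under quantile and 0.02 under cyclic loess normalisation. The median with lipoxin B4 turned from -0.07 to 0.02 under quantile normalisation. Of 331 values of single called members under the alternatives, 261 stayed on the same side of 0.32, 63 fell under it and 7 reversed. NDUFB7 reversed to -0.03 and -0.04 with leukotrienes B4 and C4, and SDHC to -0.06 with lipoxin B4, when all probe sets of a gene were averaged. Without probe sets ending in _x_at or _s_at, NDUFB7 reversed to -0.45 and -0.73 with the leukotrienes, NDUFS7 to -0.13 with leukotriene C4 and UQCR10 to 0.09 with lipoxin A4. The probe sets then read for these genes had signals under 500 on every array. The cause of the reversals was not tested.

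Counts of members at least 0.32 apart, in either direction, were 4 with leukotriene B4, 7 with leukotriene C4, 8 with lipoxin A4, 10 with lipoxin B4, 6 between the leukotrienes, 6 between the lipoxins and 2 between the classes. At 2-fold they were 0, 0, 0, 1, 0, 1 and 0. With a floor at the 70th percentile, or with members of at least 500 only, which both leave fewer genes, they were 1 with leukotriene B4, 4 with leukotriene C4, 2 with lipoxin A4, 3 between the leukotrienes, 2 between the lipoxins and 0 between the classes, and with a floor at the 30th percentile the last was 5. With coding members only, lipoxin A4 gave 4 and the classes 0. The count with leukotriene C4 was 4 on values as deposited. Lipoxin A4 gave 5 under both quantile and cyclic loess normalisation, and lipoxin B4 gave 5 and 6. Averaging all probe sets gave 8 with leukotriene B4, 11 with leukotriene C4 and 10 between the leukotrienes. Without _x_at and _s_at probe sets the counts were 14, 16 and 13 with leukotriene B4, leukotriene C4 and lipoxin A4, 13 between the leukotrienes, 12 between the lipoxins and 12 between the classes. Signals near the floor limit what can be said of COX4I2, COX6A2, COX6B2 and the noncoding members.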
